A study of Mus musculus with 5 samples.

Results

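Expression of 36 genes of cholesterol and fatty acid metabolism was compared between common dendritic cell progenitors (CDP, 3 arrays) and common myeloid progenitors (CMP, 2 arrays). The genes were chosen by name for their known roles in sterol synthesis, uptake and efflux and in fatty acid synthesis. Earlier results of these data were known at the time. Every probe set annotated with exactly 1 of these symbols was taken. A probe set is a group of short probes that together report 1 transcript. In all, 80 probe sets of 45037 on the array named 34 of the 36 genes, out of 18193 genes named on the array, and Nr1h2 and Soat1 had none named here. Both populations were sorted from the bone marrow of mice of strain C57BL/6 with a wild type genotype. CDP 3 carries the prefix CM in its title, unlike the prefix BM of the other 4 arrays, and was kept as CDP from bone marrow by its title and its other labels. The labels name no treatment and give no age. CDP were Lin-, c-Kit-intermediate, Sca-1-, CD34+, Flk2+, CD16/32- and CD115+. CMP were lineage-negative, c-Kit-high, Sca-1-, CD11c-, CD34+, Flk2+, CD16/32- and CD115-, so Csf1r (CD115) and Itgax (CD11c) helped to choose the cells. RNA of 10000 to 30000 cells sorted in 2 passes was amplified over 2 cycles before hybridization to Affymetrix Mouse Genome arrays. No label says whether arrays came from separate mice or pools, so the p-values here reflect only how far these samples vary, and that variation may be technical. In sorted bulk cells, fewer cells of a type and less RNA per cell cannot be told apart.

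Cells build cholesterol from acetyl-CoA through mevalonate, isoprenoids, squalene and lanosterol, and build fatty acids from malonyl-CoA before elongating and desaturating them. The SREBP transcription factors raise the genes of both routes when membrane sterol is low, under control of the escort protein Scap and the retention proteins Insig1 and Insig2. LXR nuclear receptors sense oxysterols and raise genes of cholesterol efflux such as Abca1 and Abcg1, a system best known from macrophages, while dividing progenitors need new membrane lipid.

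SREBP acts at promoters through the sterol regulatory element, usually beside CCAAT boxes bound by NF-Y. The letters searched were TCACNCCAC for the sterol regulatory element and CCAAT for the CCAAT box, on both strands, in the 250 bases before each RefSeq gene start (GRCm38.p6). Of the 36 genes, 27 had an entry. The sterol element was found before 1 of these 27 genes, Hmgcs1, and before 1.22% of all 27025 genes with an entry. A CCAAT box lay before 18 of the 27, among them all 10 with an entry of the 13 genes of sterol synthesis proper, and before 37.5% of all genes. Hmgcs1, which makes HMG-CoA at the entry to the mevalonate route, is shown whole because it held both motifs, with the sterol element from 137 to 129 bases before the start. Mvd, Dhcr7 and Elovl5 are shown around the CCAAT box nearest the start as 3 genes with such a box whose differences below have either sign. All are written 5′ to 3′ on the strand of the gene. Capitals mark the motifs, so that ATTGG is a CCAAT box on the opposite strand.
Hmgcs1 (chr13:119690101-119690350, plus strand): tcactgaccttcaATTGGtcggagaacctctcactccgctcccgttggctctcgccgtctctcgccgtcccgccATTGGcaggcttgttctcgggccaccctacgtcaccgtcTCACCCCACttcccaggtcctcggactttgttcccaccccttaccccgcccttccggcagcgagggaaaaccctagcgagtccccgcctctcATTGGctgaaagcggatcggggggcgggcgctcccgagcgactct
Mvd (chr8:122443423-122443477, minus strand): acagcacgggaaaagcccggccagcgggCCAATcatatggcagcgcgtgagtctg
Dhcr7 (chr7:143830137-143830197, plus strand): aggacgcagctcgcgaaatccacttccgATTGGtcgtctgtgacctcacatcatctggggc
Elovl5 (chr9:77917320-77917364, plus strand): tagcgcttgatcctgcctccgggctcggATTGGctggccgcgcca
These letters are a description of the windows, and binding was not measured.

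Between 34.0% and 35.8% of probe sets reached log2 5, the level used here for detection, on each array. The arrays were less alike in the 5′ beta-actin control, which lay at log2 6.54 on CDP 1 and 6.71 on CMP 1 against 10.52 to 12.97 on the other 3. CDP 1 and CMP 1 are termed weak-5′ arrays, and differences within each kind of array are given where they bear on a gene. All 6 markers of the CDP gate and of dendritic commitment were detected on the CDP arrays, and 5 of the 6, without Itgax, on both CMP arrays. All 5 markers of the CMP gate and early progenitors were detected on every array. Kit, Gata2, Cebpa and Cd34 were lower and Flt3 higher on every CDP array, and Kit level was itself part of the sort. Of 9 neutrophil markers 8 were detected on CDP 2, with S100a8 at 12.52, against 1 or 2 on each other array. Alas2 of the erythroid list (8.80) and Vcam1 of the macrophage list (5.86) were also detected on CDP 2 alone. The part of these transcripts in the values below was not tested.

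No gene of the 36 passed the threshold between CDP and CMP. Of the 30 genes with a tested probe set (at least 2 arrays at log2 5 or higher), 0 were called (limma, Benjamini-Hochberg adjusted p under 0.05 over 16552 probe sets), where 2.14% of all 8449 tested genes were called, 1.67% higher and 0.473% lower in CDP. An unadjusted p under 0.05 was reached by 3 of the 30, against 17.1% of all tested genes. The smallest adjusted p was 0.162, and 0 of the 49 tested probe sets of these genes passed, against 1.73% of all tested probe sets. The median difference, CDP minus CMP, was 0.15 (log2) over the 30 genes and 0.17 over all tested genes. Differences ran from -0.95 for Lss to 1.29 for Mvd, with 19 above and 11 below 0. Mvd was detected on 2 arrays, and with values below log2 5 set to 5 it was at least 1.11-fold higher in CDP. With any 1 array left out, between 0 and 44 probe sets of the whole table were called, against 287 with all 5, so a count of 0 in those fits says little.

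**Figure D1:**
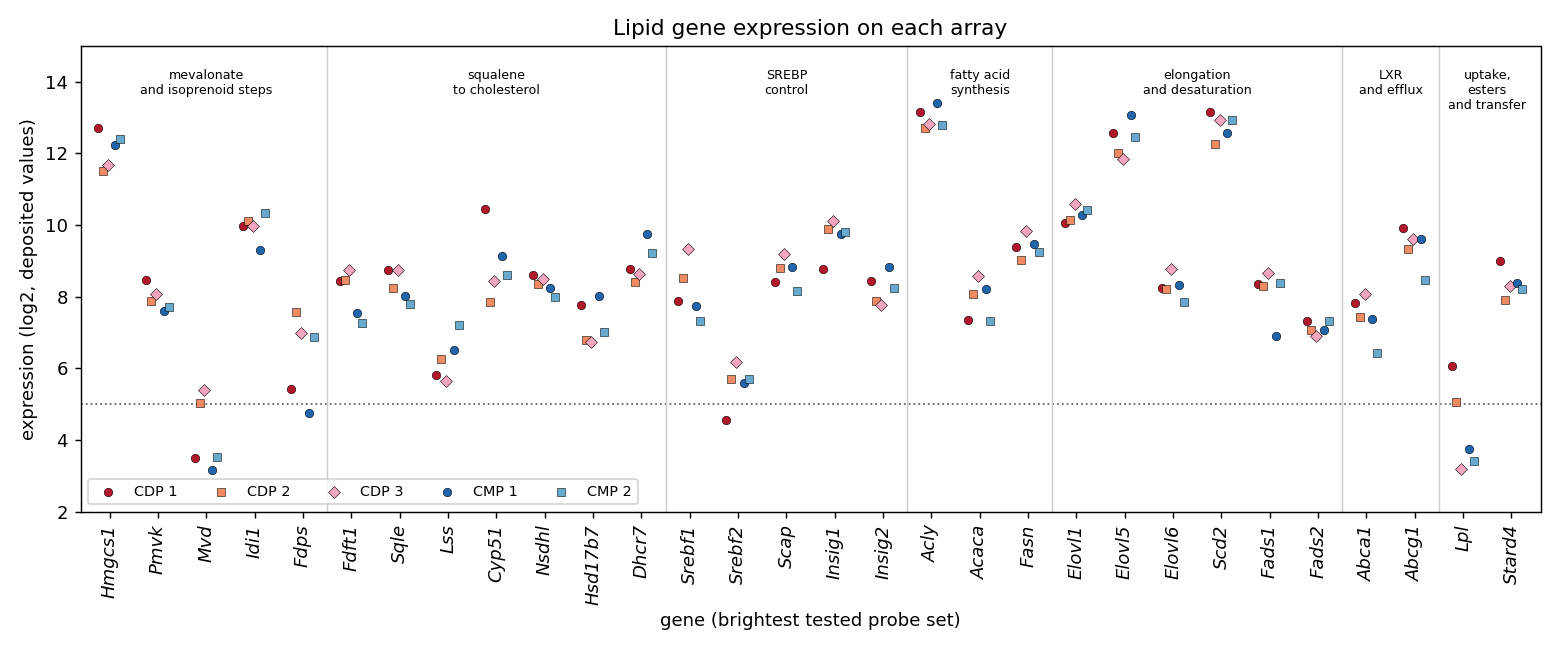
Expression (log2, deposited values) of the 30 tested genes on each of the 5 arrays, at the brightest tested probe set of each gene, ordered by metabolic step. Points are single arrays, in red to pink for CDP and blues for CMP, and the dotted line is the detection level of log2 5. CDP and CMP points separate for 8 of the 30 genes. Levels of different genes come from different probes and are not comparable.

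The size of the differences was set against the spread between arrays. For 25 of the 30 genes the difference between the group means was smaller than the wider of the ranges within the groups, as for 75.4% of all tested genes. For 8 genes the CDP and CMP values did not overlap, where 34.5% of all tested genes did not. Those higher on all CDP arrays were Pmvk, Fdft1, Sqle, Nsdhl, Srebf1 and Abca1, and those lower were Lss and Dhcr7. These shares were 23.7% and 10.8% over all tested genes. The 95% interval of the difference, not adjusted for the number of genes, lay within 2 log2 units of 0 for 26 of the 30 genes. It lay within 1 for 4 of the 30, namely Fasn, Elovl1, Scd2 and Fads2, against 11.3% of all tested genes. For the other tested genes of the 30 a difference of more than 1 log2 unit, in at least 1 direction, lay within the interval. On a dimmer tested probe set of Elovl1, of Scd2 and of Fads2 the interval also went beyond 1 log2 unit.

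**Figure D2:**
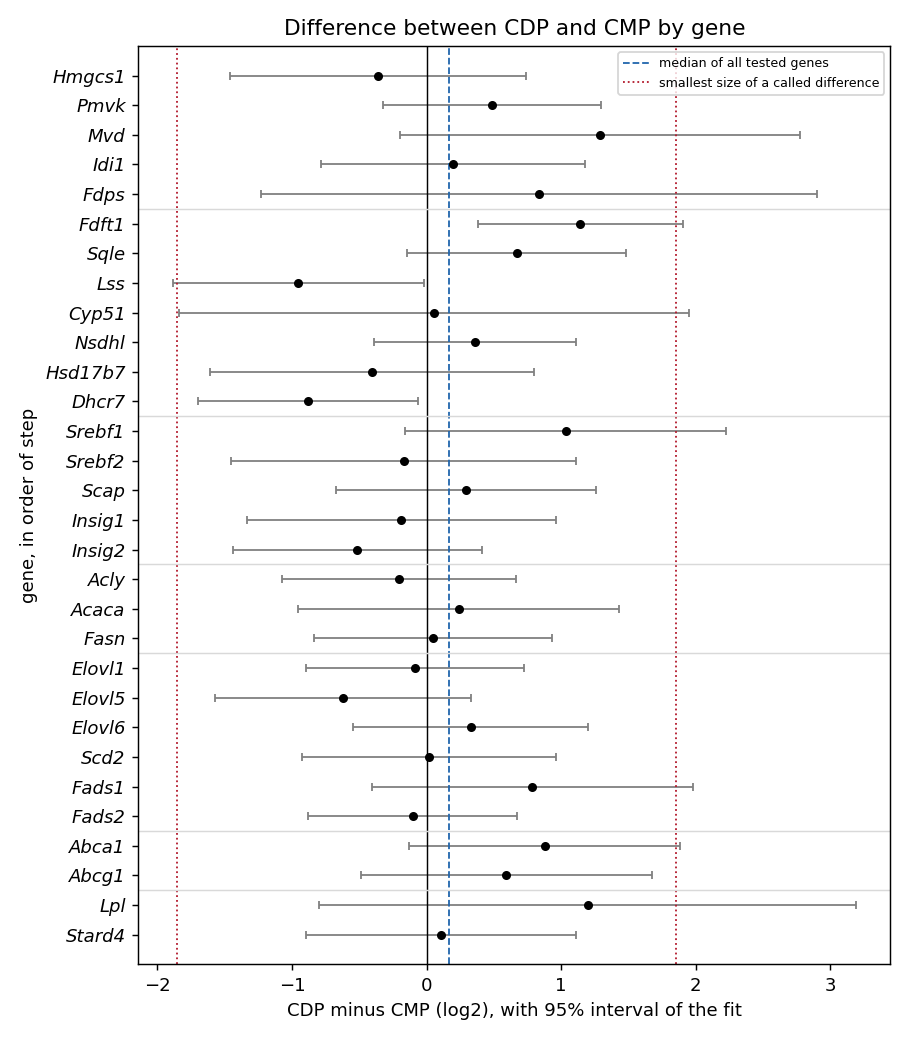
Difference CDP minus CMP (log2) of each of the 30 tested genes, with the 95% interval of the limma fit (n = 3 CDP and 2 CMP arrays), ordered by metabolic step. The dashed line is the median over all tested genes (0.17) and the dotted lines are the smallest size of any called difference on the array (1.86). No point reaches the dotted lines, and the intervals of Fdft1, Lss and Dhcr7 do not cross 0.

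In the mevalonate and isoprenoid steps 5 of 6 genes were tested and 0 passed, with a median of 0.48. Mvk, mevalonate kinase, did not go above log2 4.57 on any array. Pmvk, the kinase that follows it, was at 8.47, 7.89 and 8.06 on CDP 1, 2 and 3 and at 7.59 and 7.72 on CMP 1 and 2. Every CDP array was above both CMP arrays, by 0.48 ± 0.33 (SE, adjusted p = 0.552), or by 0.32 without CDP 1. Mvd, which decarboxylates the product to isopentenyl diphosphate, was at 3.49, 5.05 and 5.39 in CDP and 3.17 and 3.52 in CMP. It was thus detected on CDP 2 and CDP 3 only, and on neither weak-5′ array, so it entered the test through CDP alone. The difference of 1.29 ± 0.61 did not pass (adjusted p = 0.378). With values below log2 5 set to 5, Mvd was at least 1.11-fold higher in CDP. Fdps, farnesyl diphosphate synthase, was at 5.42, 7.56 and 6.99 in CDP and 4.76 and 6.88 in CMP. Its lowest values were those of CDP 1 and CMP 1, and the groups overlapped.

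Hmgcs1 and Idi1 depended on the probe set. On its brightest probe set Hmgcs1 was at 12.71, 11.50 and 11.66 in CDP and 12.23 and 12.40 in CMP, so that CDP 1 was highest of all arrays and CDP 2 and CDP 3 were lowest. The same split was seen on the dimmest of its 4 tested probe sets, at 9.44, 6.85 and 6.67 against 8.86 and 8.57. The difference was -0.36 ± 0.45 (adjusted p = 0.774) on the brightest and -1.06 ± 0.86 (adjusted p = 0.623) on the dimmest, and it was -0.38 and 0.14 on the other two. On none of the 4 did Hmgcs1 separate the groups. Idi1, which isomerises isopentenyl diphosphate, was at 10.20, 10.02 and 9.95 in CDP and 9.57 and 9.35 in CMP on 1 probe set, with every CDP array higher (0.60 ± 0.31, adjusted p = 0.415). On a brighter probe set the groups overlapped, since CMP 2 was highest at 10.35 (0.20 ± 0.40).

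From squalene to cholesterol all 7 genes were tested and 0 passed, with neighbouring enzymes on opposite sides. Fdft1, squalene synthase, was at 8.45, 8.47 and 8.75 in CDP and 7.56 and 7.27 in CMP. Each CDP array was above both CMP arrays, and the difference of 1.14 ± 0.31 (2.21-fold) had the smallest p of the 30 genes without passing (adjusted p = 0.162). On its second tested probe set the groups overlapped, at 5.67, 7.01 and 6.73 against 4.65 and 7.08, with the lowest values on CDP 1 and CMP 1. With a blocking term for the weak-5′ arrays the brighter probe set gave 1.15 ± 0.28 (adjusted p = 0.0548), in a fit that called 9.76% of all tested genes and 0 of the 30. Sqle, squalene epoxidase, was at 8.73, 8.25 and 8.75 in CDP and 8.03 and 7.79 in CMP, higher on every CDP array by 0.67 ± 0.33 (adjusted p = 0.402).

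Lss, lanosterol synthase, which closes the sterol rings in the step after Sqle, lay the other way. It was at 5.82, 6.26 and 5.65 in CDP and 6.50 and 7.22 in CMP, a difference of -0.95 ± 0.38 (adjusted p = 0.304). This rests on 1 of 3 Lss probe sets, whose suffix marks possible matches to several transcripts. The others were below detection on all arrays. Dhcr7, the reductase of the last step to cholesterol, was at 8.77, 8.41 and 8.64 in CDP and 9.75 and 9.23 in CMP. Every CDP array was below both CMP arrays, by -0.88 ± 0.34 (adjusted p = 0.281). Nsdhl, a sterol dehydrogenase, was above on every CDP array by 0.36 ± 0.31. Hsd17b7, the ketosteroid reductase of the pathway, was at -0.41 ± 0.49, and Cyp51, lanosterol demethylase, at 0.05 ± 0.78. Cyp51 spread more widely among CDP than the other 6 genes from squalene to cholesterol, at 10.46 on CDP 1 against 7.87 and 8.44, while CMP was at 9.12 and 8.61.

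Of the 5 genes of SREBP control all were tested and 0 passed. Srebf1, which encodes SREBP-1, was at 7.87, 8.51 and 9.32 in CDP and 7.74 and 7.33 in CMP. Every CDP array was above both CMP arrays, though CDP 1 by little, and the difference was 1.03 ± 0.49 (2.05-fold, adjusted p = 0.379). It was 0.13 between the weak-5′ arrays and 1.59 between the others, and 0.66 without CDP 3. Srebf2, which encodes SREBP-2, was at 4.55, 5.70 and 6.18 in CDP and 5.60 and 5.70 in CMP, so the CMP values lay within the CDP range (-0.17 ± 0.53, adjusted p = 0.918). Scap gave 0.29 ± 0.40. Insig1, itself a target of SREBP, was at 8.79, 9.88 and 10.13 in CDP and 9.75 and 9.82 in CMP. CDP 1 was thus the lowest array for Insig1 and Srebf2 and the highest for Hmgcs1 and Cyp51, and what sets it apart was not tested. Insig2 was at 8.44, 7.87 and 7.78 in CDP and 8.84 and 8.25 in CMP on its brightest of 3 tested probe sets, and the groups overlapped (-0.51 ± 0.38, adjusted p = 0.587). That difference was -0.22 without CMP 1 and -0.81 without CMP 2. On a dimmer Insig2 probe set every CDP array was below both CMP arrays, CDP 1 by little (-0.43 ± 0.35, adjusted p = 0.622).

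In fatty acid synthesis all 3 genes were tested and 0 passed, with a median of 0.05. Acly, which makes cytosolic acetyl-CoA from citrate, was at 13.17, 12.71 and 12.82 in CDP and 13.41 and 12.79 in CMP (-0.20 ± 0.36, adjusted p = 0.843). Acaca, acetyl-CoA carboxylase, was at 7.36, 8.06 and 8.58 in CDP and 8.20 and 7.33 in CMP (0.24 ± 0.49, adjusted p = 0.872). Fasn, fatty acid synthase, was at 9.38, 9.03 and 9.83 in CDP and 9.48 and 9.25 in CMP, a difference of 0.05 with a 95% interval from -0.84 to 0.93. On each of the 3 genes the groups overlapped.

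Among elongases and desaturases 6 of 7 genes were tested and 0 passed. Of the stearoyl-CoA desaturases Scd1 and Scd2, which make monounsaturated fatty acids, Scd2 was detected. It was at 13.15, 12.27 and 12.93 in CDP and 12.58 and 12.94 in CMP, whereas neither probe set of Scd1 went above log2 2.46 on any array. A second Scd2 probe set was at 7.65, 4.20 and 3.23 in CDP and 6.99 and 6.59 in CMP. There CDP 2 and CDP 3 lay below detection and the other 3 arrays above it, and the difference of -1.77 ± 1.25 did not pass (adjusted p = 0.567). Elovl5, an elongase of polyunsaturated fatty acids, was at 12.58, 12.02 and 11.84 in CDP and 13.08 and 12.45 in CMP (-0.62 ± 0.39, adjusted p = 0.509). The difference was -0.31 without CMP 1 and -0.93 without CMP 2. Its dimmer probe set had every CDP array below both CMP arrays (-0.65 ± 0.35, adjusted p = 0.435).

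Fads1, the delta-5 desaturase, was at 8.35, 8.31 and 8.65 in CDP and 6.92 and 8.38 in CMP. CMP 1 alone stood low, and the difference was 0.79 ± 0.49 (adjusted p = 0.506), with 0.055 left without CMP 1 and 1.52 without CMP 2. Fads2, the delta-6 desaturase, gave -0.10 ± 0.32 on its brightest probe set and 0.82 ± 0.36 on a dimmer one, where every CDP array was higher (adjusted p = 0.345). Elovl6, which extends saturated fatty acids, was at 0.33 ± 0.36, and Elovl1, an elongase of very long chains, at -0.09 ± 0.33 on its brightest and 0.52 ± 1.37 on a dimmer probe set. Of 12 genes with several tested probe sets, 5 had differences of both signs, namely Hmgcs1, Elovl1, Scd2, Fads2 and Stard4.

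**Figure D3:**
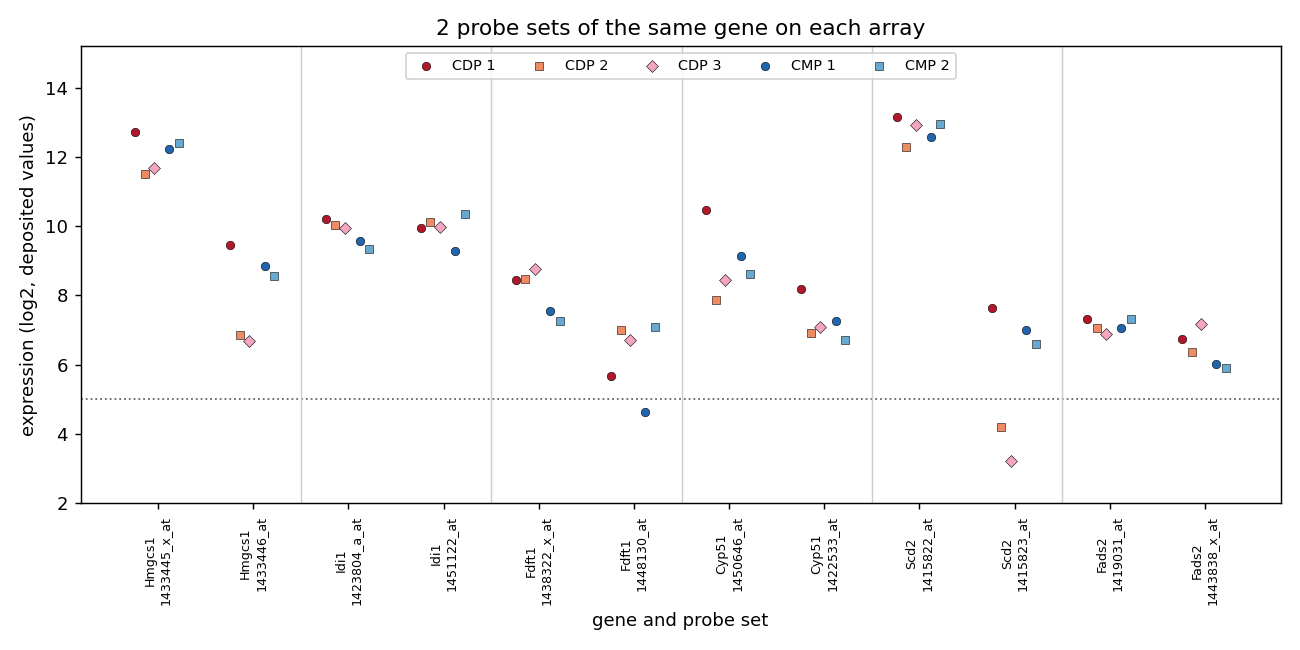
Expression (log2, deposited values) of 6 genes on 2 probe sets each, picked after their values were seen to show how far probe sets of a gene differ, with 1 point per array, in red to pink for CDP and blues for CMP, and a dotted line at the detection level of log2 5. For Idi1, Fdft1 and Fads2 the groups separate on 1 probe set and overlap on the other, and for Scd2 the dimmer probe set puts CDP 2 and CDP 3 below the line.

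Of the LXR and efflux genes with a probe set, the 2 transporters were tested and 0 passed. Nr1h3, which encodes LXR-alpha, did not go above 2.26, near the floor of the table, and Apoe, the lipid carrier that macrophages secrete, did not go above 3.39. Abca1, which loads cholesterol onto apolipoprotein A-I, was at 7.82, 7.45 and 8.07 in CDP and 7.38 and 6.43 in CMP. All CDP arrays were above both CMP arrays, CDP 2 by little, and the difference of 0.88 ± 0.41 (1.84-fold) did not pass (adjusted p = 0.378). It was 0.45 between the weak-5′ arrays and 1.33 between the others. It was 0.41 without CMP 2 and 1.35 without CMP 1. Abcg1, which exports cholesterol to lipoproteins, was at 9.93, 9.34 and 9.60 in CDP and 9.60 and 8.45 in CMP (0.59 ± 0.45, adjusted p = 0.592). The low value of CMP 2 moved with that difference, which was 0.02 without it.

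Lpl, lipoprotein lipase, was at 6.08, 5.05 and 3.19 in CDP and 3.74 and 3.41 in CMP. It was detected on CDP 1 and CDP 2 and not on CDP 3 or CMP, so it entered the test through CDP alone. With values below log2 5 set to 5, Lpl was at least 1.3-fold higher in CDP. The difference of 1.20 ± 0.82 did not pass (adjusted p = 0.550). It was 0.55 without CDP 1 and 1.99 without CDP 3. Stard4, a cytosolic sterol carrier, was at 9.004, 7.91 and 8.30 in CDP and 8.38 and 8.23 in CMP. The groups overlapped (0.10 ± 0.41, adjusted p = 0.937), and the other probe sets gave 0.17 ± 0.31 and -0.40 ± 0.29, the latter with every CDP array lower (adjusted p = 0.590).

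Within each kind of array the differences had the same sign for 18 of the 30 genes, as they had for 67.8% of all tested genes. The median of the 30 was 0.27 between CDP 1 and CMP 1 and 0.18 between the others, and that of all tested genes was 0.17 and 0.13. Fdft1 (0.90 and 1.34), Sqle (0.71 and 0.71), Lss (-0.69 and -1.27) and Dhcr7 (-0.98 and -0.70) kept their side in both. Cyp51 (1.33 and -0.45), Acaca (-0.84 and 1.00) and Srebf2 (-1.05 and 0.24) did not. For Fdft1, Sqle, Lss and Dhcr7 the groups did not overlap, so the shared sign was fixed in advance and adds nothing. With each comparison resting on 1 CMP array, these values carry no test.

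**Figure D4:**
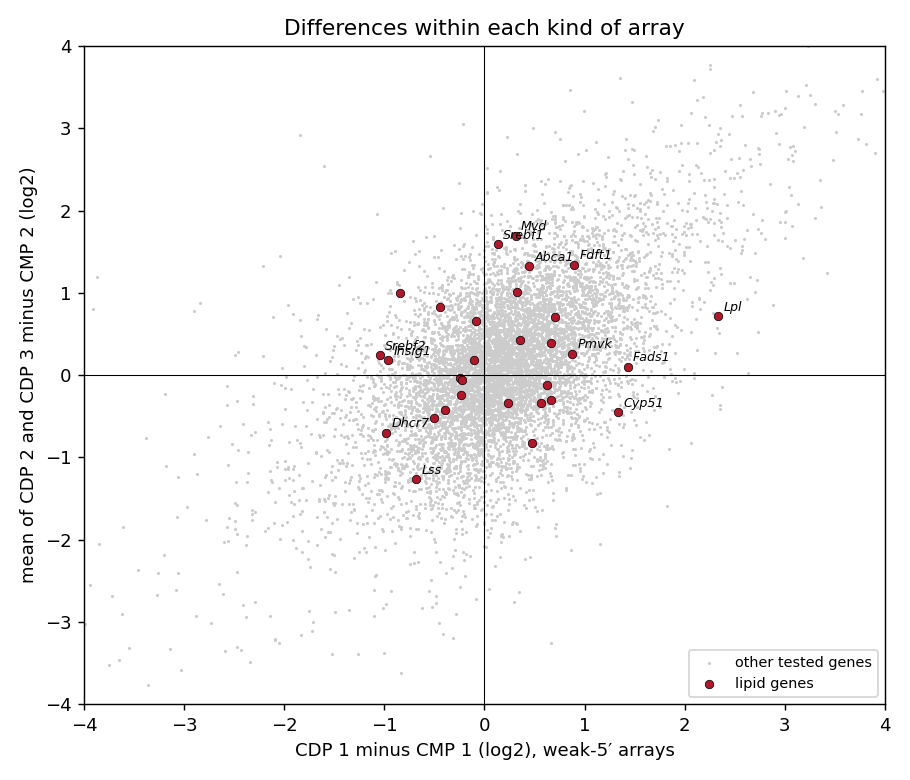
Difference CDP 1 minus CMP 1 (log2, weak-5′ arrays) on the horizontal axis against the mean of CDP 2 and CDP 3 minus CMP 2 on the vertical axis. Red points are the 30 lipid genes and grey points the other tested genes, of which 72 lie beyond the axis limits of 4. Fdft1 and Abca1 lie in the upper right quadrant, Lss and Dhcr7 in the lower left, and Cyp51, Insig1 and Srebf2 in quadrants of opposite sign.

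Beyond these 36 genes, 4 of 81 tested genes of 5 further lipid lists passed, 3 higher and 1 lower in CDP, against 2.14% of all tested genes. These lists were chosen with earlier results of these data known, so their share called is no test against that of all genes. The median of the 81 was 0.16. In the list of sterol uptake, traffic and oxysterols 3 of 21 passed. Cyp27a1, the mitochondrial sterol 27-hydroxylase that makes an oxysterol, was at 7.47, 8.02 and 7.91 in CDP and 5.01 and 5.34 in CMP. Every CDP array was above both CMP arrays, and Cyp27a1 was 6.17-fold higher in CDP (2.62 ± 0.34, adjusted p = 0.0316). Gpr183, a receptor for a different oxysterol, was at 10.01, 10.05 and 10.25 in CDP and 3.41 and 5.33 in CMP, at least 30.6-fold higher (values below log2 5 set to 5, adjusted p = 0.0164). By its other probe set Gpr183 was at least 7.27-fold higher (adjusted p = 0.0155). Vldlr, a receptor for triglyceride-rich lipoproteins, was at 2.59, 2.41 and 2.80 in CDP and 6.34 and 6.13 in CMP. That is a level at least 2.36-fold lower in CDP, which was below detection on each array (adjusted p = 0.0132). The call rests on 1 of 6 Vldlr probe sets, whose suffix marks possible matches to several transcripts, and the other 5 were below detection on all arrays.

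Fads3, a desaturase of the Fads family, was the 1 of 13 genes called in the list of fatty acid activation and synthesis. It was at 7.17, 7.27 and 7.79 in CDP and 3.73 and 2.86 in CMP, at least 5.30-fold higher (adjusted p = 0.0155), and by its other probe set at least 3.07-fold (adjusted p = 0.0217). Fads3 was below detection in both CMP arrays, unlike Fads1 and Fads2, and it entered the test only through its CDP arrays. Vldlr entered only through its CMP arrays. Gpr183 reached log2 5 on CMP 2 as well, but would not have entered without its CDP arrays. For Fads3, Vldlr and Gpr183 the filter and the test drew on the same high values. All 4 calls ended when any 1 array was left out, with adjusted p from 0.0644 to 0.200 for Cyp27a1, 0.0648 to 0.131 for Gpr183, 0.0541 to 0.110 for Vldlr and 0.0576 to 0.126 for Fads3. Their differences ran from 2.46 to 2.79 for Cyp27a1, 4.77 to 6.70 for Gpr183, -3.74 to -3.54 for Vldlr and 3.68 to 4.55 for Fads3. Of 10 macrophage markers 2 or 3 were detected on the CDP arrays and 0 or 1 on CMP. Their summed linear signal was 140 to 313 in CDP and 93.2 to 203 in CMP, and 7 of the 10, C1qa, C1qb, C1qc, Mrc1, Mertk, Axl and Cd5l, were below log2 5 on every array. Adgre1, which encodes F4/80, was at 5.80, 5.82 and 5.41 in CDP and 4.60 and 3.88 in CMP, higher on every CDP array together with Gpr183, Fads3 and Cyp27a1. Mrc1 was also higher on every CDP array, at 2.77, 4.31 and 3.72 against 2.69 on both CMP arrays, all below detection and CDP 1 by little. Cd68 and Vcam1, the other detected markers of this list, overlapped between the groups. Markers of the neutrophil, erythroid, megakaryocyte, B cell, T and NK cell and stroma lists also differed, at the brightest tested probe set. Cd79b, Ighm and Tfrc were higher on every CDP array. Mpo, Pf4, Itga2b and Nkg7 were lower on every CDP array, as Vldlr was, and Car2 and Pdgfrb overlapped. Of all tested genes 23.7% were higher and 10.8% lower on every CDP array. The part of these markers in the 4 calls was not tested.

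The remaining lists had no call. Among other enzymes of sterol and isoprenoid synthesis 0 of 11 passed. Sc5d, the lathosterol desaturase, was at 8.16, 7.79 and 8.06 in CDP and 6.67 and 6.59 in CMP (1.37 ± 0.31, adjusted p = 0.104). Msmo1, which removes methyl groups from sterol, was at 6.39, 7.23 and 7.66 against 5.08 and 5.83 (1.64 ± 0.49, adjusted p = 0.184). Both lay above CMP on every CDP array. Both passed with a blocking term for the weak-5′ arrays (adjusted p = 0.0287 for Sc5d and 0.0296 for Msmo1), in a fit that called 9.76% of all tested genes. Of 21 genes of fatty acid oxidation 0 passed, and the smallest p belonged to Cpt2, of the carnitine shuttle (1.36 ± 0.39, adjusted p = 0.172), and Acaa1a, a peroxisomal thiolase (0.90 ± 0.35, adjusted p = 0.289). Of 15 genes of glycerolipids and lipid droplets 0 passed, with Lpin1, a phosphatidate phosphatase, at 1.07 ± 0.46 (adjusted p = 0.334) and Agpat4, an acyltransferase, at -0.94 ± 0.43 (adjusted p = 0.367). For Lpin1 the difference was 0.56 without CMP 2, and it was 0.07 between the weak-5′ arrays and 1.83 between the others. Npc2, which carries cholesterol out of lysosomes, belongs to the list of sterol uptake, traffic and oxysterols above. It did not pass on its brightest probe set (0.62 ± 0.30, adjusted p = 0.383) but was 5.64-fold higher on a dimmer one (adjusted p = 0.0244). It was picked after its values were seen.

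**Figure D5:**
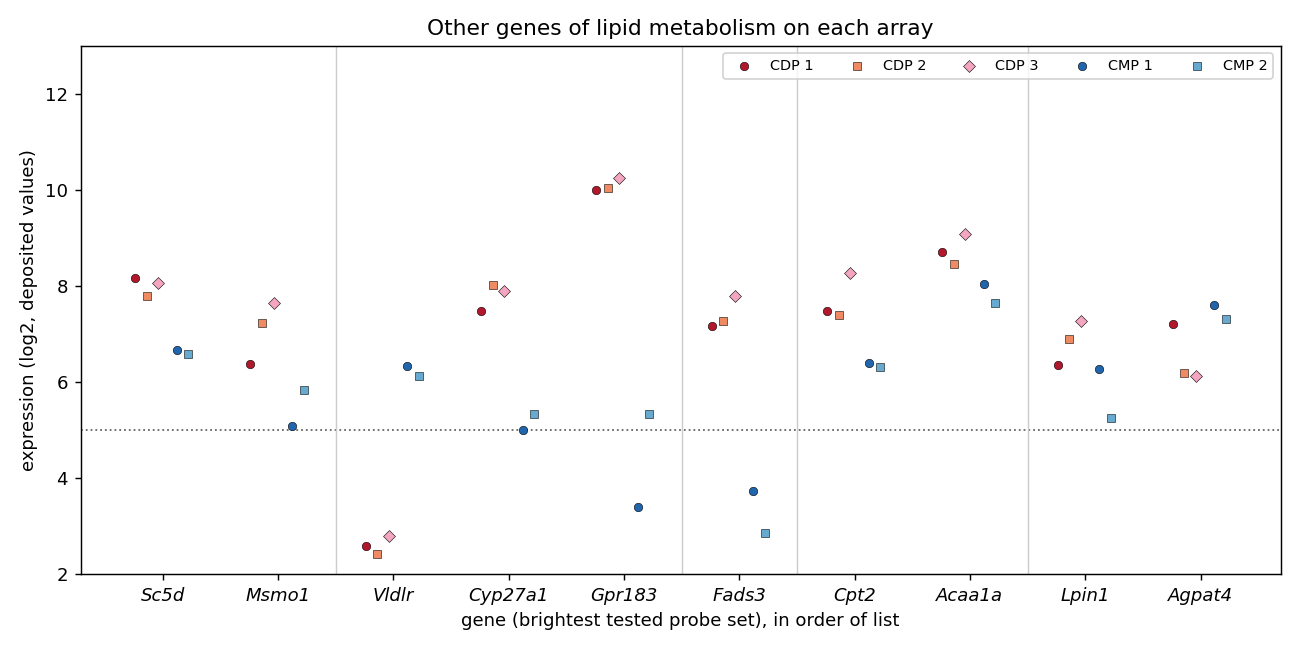
Expression (log2, deposited values) of 10 further lipid genes on each array, at the brightest tested probe set, in red to pink for CDP and blues for CMP, with a dotted line at the detection level of log2 5. Vldlr, Cyp27a1, Gpr183 and Fads3 passed the threshold, and Vldlr alone of these 4 is higher in CMP.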

How the data were processed

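Total RNA of sorted cells was measured on 5 single-colour Affymetrix arrays. The deposited values are log2 expression, made by the authors with GCRMA, a method that corrects background by probe sequence, per the submitters' processing notes. Version and genome build are not given in the sources used here. Values at the lowest level, 2.26, have no order. Having 5 arrays limits the precision.

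Sample titles gave groups and replicate numbers. GEO's platform annotation named probe sets: 34945 of 45037 had 1 symbol, 932 several and 9160 none, and only those with 1 were named. All 34 member gene identifiers matched RefSeq (GRCm38.p6), with 0 symbols changed. Probe sets with at least 2 arrays at log2 5 were fitted in limma 3.58.1 (R 4.3.3, lmFit and eBayes, 2-sided, 3 residual and 3.14 prior degrees of freedom). Benjamini-Hochberg adjustment ran over all 16552. The procedure was tested on simulated data. Each gene is represented by its brightest tested probe set, and 12 of the 30 carry suffixes that mark possible matches to several transcripts. Differences are CDP minus CMP with the standard error of the fit.

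Members and lists were chosen with earlier results of these data known. Values on every array are given for each step's 2 members of smallest p and for other members fixed by name, and of the further lists for called genes or else the 2 of smallest p. Others were added where probe sets or arrays disagreed. Alternatives were scaling, filters, variance models, array weights, blocks, removal of probe sets with such suffixes, gene means and leaving out arrays.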

Additional observations from a re-analysis of the deposited data

How the results depend on the processing

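No member passed under any alternative but 1 (scaling, filters, variance models, array weights, weak-5′ arrays as a block or left out, probe sets of possible multiple match left out, gene means, and each array left out). The exception was the replicate block, with the replicate number as a term, under which 1 passed, Lpl (1.99, adjusted p = 0.0445), in a fit with 1 residual degree of freedom. Same-numbered arrays deviated together from their group means (correlation 0.606 for number 1 and 0.579 for number 2). With 2 CMP arrays the deviations of CMP 1 and CMP 2 are exact opposites, so these values are not separate evidence. CDP 3, which has no partner, also gave 0.326 with CMP 2. Number 1 is also both weak-5′ arrays and no label says what a number marks, so the numbers were not taken to pair samples. The count of called probe sets, 287, became 608 with the replicate block, 1438 with the weak-5′ block, 0 without those arrays and 55 without a filter, and ran from 0 to 44 with each array left out. The cause was not tested, except that fewer arrays leave fewer degrees of freedom. Where 1 CMP array was left, it was assumed to vary like CDP.

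The median of the members stayed between 0.02 and 0.28. Centring on tested probe sets moved the median of all tested genes by -0.13 and quantile normalization by -0.10. Only some members were followed under every alternative. Of the rest, Cyp51 (-0.45), Idi1 (-0.30) and Insig1 (0.18) reversed sign without the weak-5′ arrays, and the rest may also reverse under other alternatives. Among the uncalled members that were followed, signs reversed as follows. Scd2 became -0.11 with array weights, -0.11 centred on tested probe sets, -0.34 without the weak-5′ arrays, -0.87 as a gene mean, -0.054 with the replicate block and -0.16 to 0.28 with each array left out. Stard4 became -0.11 with array weights, -0.024 centred, -0.016 by quantiles, -0.12 without the weak-5′ arrays, -0.039 as a gene mean and -0.19 to 0.35 with each array left out. Srebf2 became 0.17 with array weights, 0.24 without the weak-5′ arrays and -0.52 to 0.29 with each array left out. Acaca became -0.052 with the replicate block and -0.20 to 0.68, and Acly -0.51 to 0.10, with each array left out. Without a filter the 4 further lipid genes also missed the threshold (adjusted p from 0.0564 to 0.185).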
